A study of Mus musculus with 10 samples.

Results

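Cxcl12, Cxcr4 and Ackr3 are the ligand, the signalling receptor and the scavenging receptor of a chemokine axis, and they were taken by their symbols as 3 of the 31053 genes in the deposited tables. The rule that lists them uses no measured value, although earlier results of these data were known when they were picked. They were followed in E0771 tumors, grown from a mouse mammary carcinoma line. Female C57BL/6 mice aged 16 weeks received the cells in mammary fat pad 4, and the tumors were removed after 21 days. The WT tumors grew in littermates that kept endothelial AGO1, and the KO tumors in EC-AGO1-KO mice, in which the Cdh5-driven Cre recombinase deletes the loxP-flanked Ago1 gene. The Cdh5 promoter is active in endothelial cells, and the injected tumor cells carry an unedited Ago1 in both groups. Deletion in other host cells was not analysed here. There were 10 libraries of single cells, 5 per genotype. The KO libraries held 7 tumors, because the libraries named KO 2+3 and KO 5+6 pool 2 small tumors each. Batch 1 held 1 library per genotype and batch 2 held 4 per genotype.

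CXCL12 is a chemokine made mainly by fibroblasts, mural cells and endothelium, and it is held on cell surfaces and matrix near its source. CXCR4 is the G protein-coupled receptor through which it directs the migration and retention of leukocytes, and some carcinoma cells use the same receptor in metastasis. ACKR3, also called CXCR7, binds CXCL12 with high affinity and signals through arrestins rather than G proteins. It takes up and degrades the ligand, which shapes local gradients.

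In the GENCODE vM21 annotation of GRCm38 (mm10), Cxcl12 (ENSMUSG00000061353) lies on chromosome 6 from 117168535 to 117181367 on the plus strand, with 4 transcripts of 3 to 4 exons. Cxcr4 (ENSMUSG00000045382) lies on chromosome 1 from 128588199 to 128592293 on the minus strand, with 2 transcripts of 2 exons each. Ackr3 (ENSMUSG00000044337) lies on chromosome 1 from 90203980 to 90216751 on the plus strand, with 2 transcripts of 2 to 3 exons. No other annotated gene overlapped any of them on either strand, so their reads are not shared with an antisense or overlapping gene. The study also measured Cxcr4 RNA in cultured E0771 cells by quantitative PCR, and probed CXCR4 protein by western blot. It reports lower CXCR4 expression in those cells when AGO1 was knocked down in endothelial cells. Its mouse primers are shown because they mark the transcript that those cells were tested for.
Cxcr4 forward primer: gactggcatagtcggcaatg
Cxcr4 reverse primer: agaaggggagtgtgatgacaaa
Cxcr4 amplicon: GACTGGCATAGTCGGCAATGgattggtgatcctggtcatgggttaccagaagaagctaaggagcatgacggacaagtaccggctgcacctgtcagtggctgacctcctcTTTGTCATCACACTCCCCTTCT
The amplicon is the transcript strand of GRCm38 chromosome 1 from 128589637 to 128589767, read from the minus strand, and its capitals mark the primer sites. All 131 bases lie in exon 2, and both primer sites lie wholly within the coding sequence. The droplet libraries count RNA from the 3' end of the transcript, so they do not read this stretch itself.

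The libraries held between 8323896 and 10591577 unique molecular identifiers (UMIs), each marking 1 captured RNA molecule. Barcodes were taken as cells when they held between 200 and 7000 genes and no more than 10% of their UMIs were mitochondrial, which gave 65298 cells. The batches differed in depth, with a median of 4049 and 3862 UMIs per cell in the WT and KO library of batch 1, and of 595 to 1142 in batch 2. Any pair of libraries shared at most 28 cell barcodes. Cells were clustered without the 3 genes and named from marker lists as tumor-like (55023 cells), myeloid-like (2216), T-like (1390), fibroblast-like (608), epithelial-like (440), dendritic-like (325), pericyte-like (273), endothelial-like (211) and B-like (65, batch 1 alone). The other 4747 cells stayed unnamed, in clusters that included mixtures with tumor RNA. The 7 markers of tumor or mesenchyme summed to 10349 to 21440 CPM in tumor-like cells. The sums were 6450 to 13448 CPM in fibroblast-like, 7310 to 15262 in endothelial-like and 828 to 3808 in T-like cells. Mesenchyme shares this list, so the sum does not measure tumor RNA in stromal classes. Pvt1 alone was compared with its level in first-round clusters without leading markers of another class, nearly all tumor-like. It stood at 47.4% in the fibroblast-like cluster of batch 2, 36.8% in the endothelial-like cluster and 1.8% in the fibroblast-like cluster of batch 1. Ago1 had 0 UMIs in the endothelial-like cells of every library, WT included, so the deletion could not be checked at this depth. All levels below are CPM, the UMIs of a gene scaled to 1000000 UMIs of that class and library with Actb left out, and a library enters a mean or a test with at least 10 cells of the class. Over all cells there were 93 UMIs of Cxcl12, 418 of Cxcr4 and 1159 of Ackr3, so most values rest on few molecules. In summed cells of a whole tumor, more cells of a type and more RNA per cell cannot be told apart.

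Cxcl12 had its highest mean in fibroblast-like cells when each class was averaged over all its libraries. It averaged 93.1 ± 124 CPM in fibroblast-like cells (SD, n = 9 libraries), 60.7 ± 106 in endothelial-like cells (n = 7), 35.8 ± 41.9 in epithelial-like cells (n = 6) and 17.4 ± 24.9 in pericyte-like cells (n = 8). Of these classes, only fibroblast-like cells had a library of batch 1 in the mean, the WT one, at 411 CPM from 12 cells. In the 7 libraries, all of batch 2, that entered both means, the order of fibroblast-like and endothelial-like cells was reversed. The means there were 44.9 CPM in fibroblast-like and 60.7 CPM in endothelial-like cells. Fibroblast-like cells were higher in 4 of these libraries and endothelial-like cells in 2. The spread was as large as the means, and the neighbouring classes named above did not differ beyond it. Exact sign-flip permutation tests over libraries gave adjusted p = 0.93 for fibroblast-like against endothelial-like cells and 0.34 against pericyte-like cells. In tumor-like cells Cxcl12 was 0.214 ± 0.292 CPM (n = 10). No UMI of Cxcl12 was found in myeloid-like, dendritic-like or B-like cells, which in myeloid-like cells allows up to 1.497 CPM in batch 1 and 6.67 CPM in batch 2 by the limit of 3 UMIs. Fibroblast-like cells were above tumor-like cells in 8 of 9 libraries and above T-like and myeloid-like cells in 8 of 9. None of the 28 pairs of classes passed the adjustment over 84 tests for this gene, and those 3 pairs came closest (exact permutation adjusted p = 0.055).

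**Figure D1:**
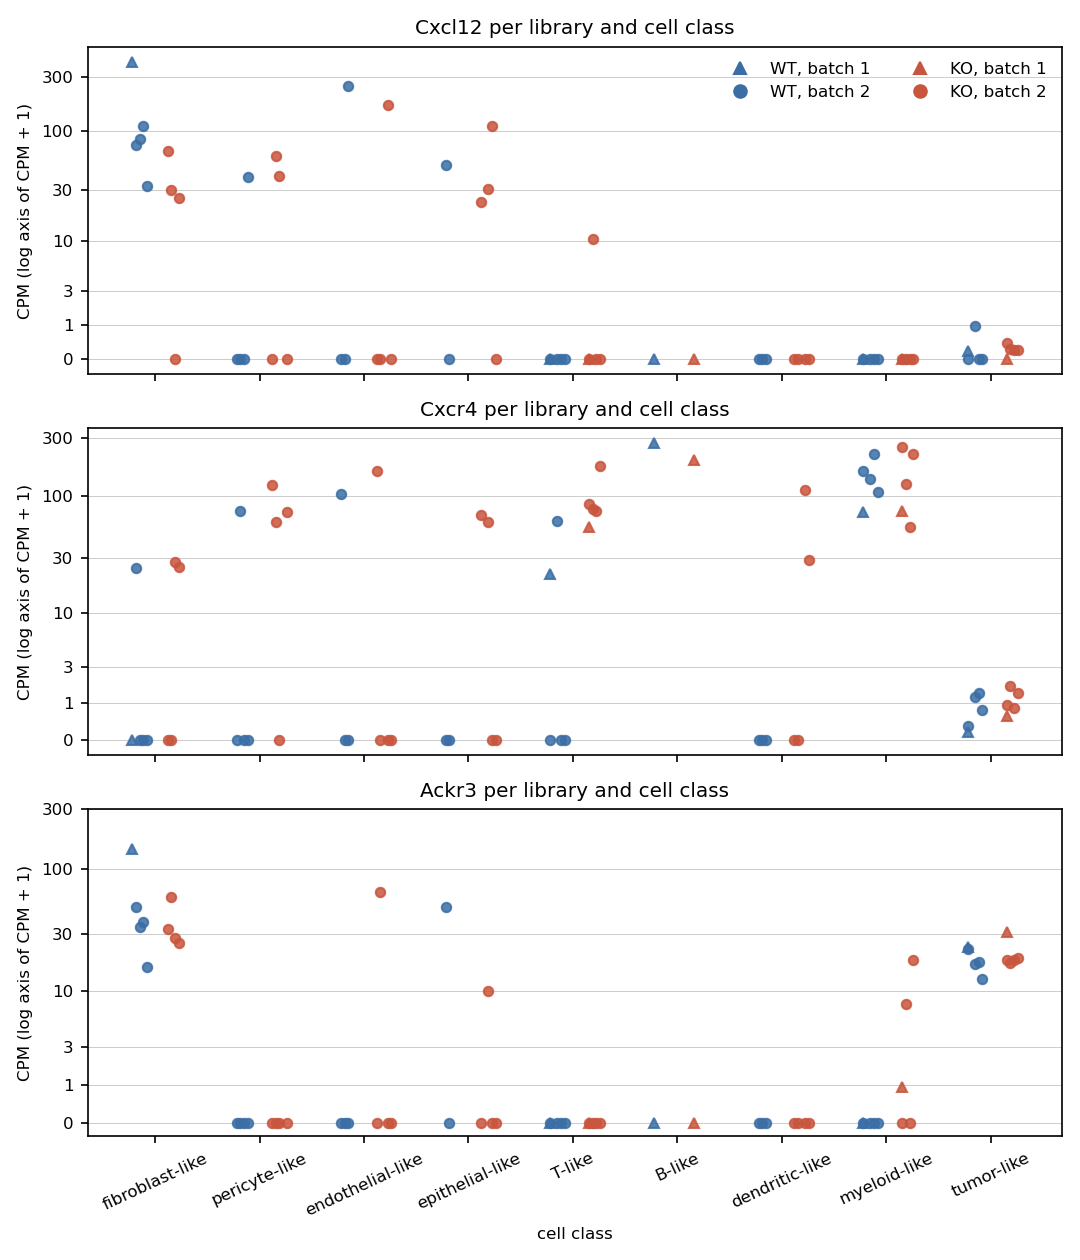
Levels of Cxcl12, Cxcr4 and Ackr3 in CPM, on a log axis of CPM + 1, with 1 point per library that held at least 10 cells of the class, triangles for batch 1 and circles for batch 2, WT in blue and KO in red. Cxcl12 has its highest mean in fibroblast-like cells when their WT library of batch 1 is counted. It is also read in endothelial-like, epithelial-like and pericyte-like cells and is at 0 in myeloid-like cells. Cxcr4 has its highest means in B-like and myeloid-like cells and is near 1 CPM in tumor-like cells. Ackr3 is above 0 in every library of fibroblast-like and tumor-like cells and at 0 in T-like cells.

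The fibroblast-like cells of batch 1 stood apart. The WT library of that batch had 31 Cxcl12 UMIs in 12 cells, or 411 CPM (95% exact Poisson interval 280 to 584). The KO library had 8 UMIs in 9 cells, or 116 CPM (50.01 to 228). In batch 2 the WT libraries 1, 3, 4 and 5 had 3, 5, 3 and 2 UMIs, or 75.01, 85.6, 112 and 32.1 CPM. The KO libraries 1, 2+3, 4 and 5+6 had 2, 1, 0 and 1 UMIs, or 66.4, 29.9, 0 and 25.2 CPM. KO values lay mostly under WT values, but the ranges overlapped. Here as elsewhere, intervals cover counting error only.

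The question was whether deleting Ago1 in endothelium altered the ligand in its stromal source. Cxcl12 did not pass the limit on low counts in fibroblast-like cells, and in edgeR without that limit its log2 fold change in KO was -1.27 ± 0.79 (SE, 5 WT and 4 KO libraries, adjusted p = 0.72). Of the genes tested, 0% were called in fibroblast-like cells with the limit and 0.0139% without it. The exact within-batch permutation test gave a KO minus WT difference of -45.9 CPM (p = 0.057, 0.39 after adjustment over 27 tests), where 0.029 is the smallest p the libraries allow. This difference and the fold change of -1.27 rest on batch 2, because the KO library of batch 1 had under 10 cells. At the finer clustering the log2 fold change was -4.16 (edgeR adjusted p = 0.70), without the batch term -2.59 (adjusted p = 0.089) and with cells of at least 500 genes -2.26 (adjusted p = 0.75). With the KO library of 9 cells kept, the difference was -95.9 CPM and p = 0.029 by the same exact test (adjusted p = 0.26). Counting only molecules, the KO to WT ratio was 0.282 in batch 1 (0.112 to 0.626) and 0.415 in batch 2 (0.0985 to 1.34). In stroma, which joins fibroblast-like and pericyte-like cells, the means were 119 ± 137 CPM in WT (n = 5) and 28.9 ± 12.4 in KO (n = 4). That WT mean includes batch 1, which had no KO library of at least 10 cells. In batch 2 alone the WT mean was 57.9 ± 20.2 CPM (n = 4). The tested within-batch difference was -29.0 CPM, and the exact permutation p was also 0.057.

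In endothelial-like cells, the type targeted by the Ago1 deletion in KO mice, Cxcl12 was found in 3 libraries. There were 3 UMIs in the WT library of batch 1, 4 in WT 5 and 3 in KO 1, and 0 in each of the other libraries. The ligand was therefore read in endothelium of both genotypes, too rarely to be compared. At a finer clustering, all 9 UMIs of epithelial-like cells lay in a cluster led by Auts2, Efna5, Egr1, Igfbp5 and Rbpms at 112 CPM (51.1 to 212), and none in the cluster led by Prlr, Ptn, Epcam, Gata3 and Nrxn3, in which 0 UMIs allow up to 40.8 CPM at the upper end of the interval. Fibroblast-like cells, 0.971% of the cells of batch 1, gave 39 of its 43 Cxcl12 UMIs (90.7%). In batch 2 they were 0.930% of the cells and gave 17 of 50 UMIs (34.0%), while tumor-like cells gave 11 at 85.3% of the cells. Over both batches tumor-like cells held 12 Cxcl12 UMIs, where free RNA, which is RNA released into the droplets, would give 15.02. The measured level exceeded the expected one in 2 of 10 libraries. The same estimate was too high for Xist, as given with Cxcr4 below. Whether tumor-like cells carried Cxcl12 beyond free RNA was not tested.

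**Figure D2:**
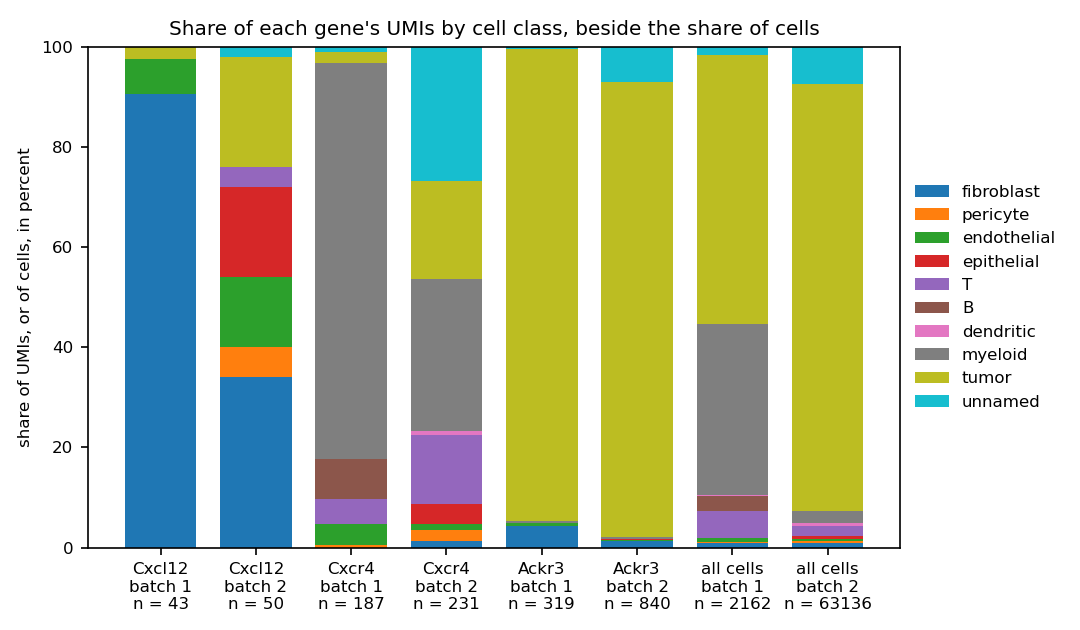
Share of all UMIs of each gene that each cell class gave, in percent, for each batch over its WT and KO libraries together, with the number of UMIs under each bar and the share of cells in the last 2 bars. Fibroblast-like cells gave 90.7% of Cxcl12 in batch 1 and 34.0% in batch 2. Myeloid-like cells gave 79.1% of Cxcr4 in batch 1, where they were 34.1% of the cells. In batch 2 they were 2.34% of the cells and gave 30.3%, beside 26.8% from unnamed and 19.5% from tumor-like cells. Tumor-like cells gave over 91% of Ackr3 in both batches.

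Among libraries with at least 10 cells of a class, Cxcr4 had its highest means in B-like and myeloid-like cells. Its mean was 143 ± 69.6 CPM for myeloid-like and 55.2 ± 54.4 CPM for T-like cells (SD, n = 10 each). It was 41.3 ± 47.5 in pericyte-like cells (n = 8), 37.4 ± 65.9 in endothelial-like cells (n = 7), 21.6 ± 33.5 in epithelial-like cells (n = 6), 19.95 ± 41.5 in dendritic-like cells (n = 7) and 8.68 ± 13.0 in fibroblast-like cells (n = 9). It was 0.955 ± 0.528 CPM in tumor-like cells. Myeloid-like cells were above tumor-like cells in 10 of 10 libraries, above T-like cells in 9 of 10 and above fibroblast-like cells in 9 of 9, each with an exact permutation adjusted p of 0.047. T-like, pericyte-like and endothelial-like cells did not differ from each other beyond their spread.

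B-like cells had the highest Cxcr4 level where they could be named. In batch 1 the WT library had 10 UMIs or 271 CPM, and the KO library 5 UMIs or 198 CPM. At the finer clustering a B-like cluster was also found in batch 2, led by Igkc, Ebf1, Bach2, Bank1 and Ighm, with 13 UMIs in 169 cells or 240.3 CPM (128 to 411), an interval that overlaps those of the myeloid-like clusters. With 1 library per genotype at the main clustering, the B-like cells had no test. Endothelial-like cells of batch 1, 9 and 8 per library and so left out of the means, had 4 UMIs each, or 166 CPM in WT and 128 CPM in KO.

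Detection of at least 1 Cxcr4 UMI per cell was compared after every cell was thinned to 500 UMIs. The share was 12.8% in B-like, 3.73% in myeloid-like, 2.38% in T-like and 0.0159% in tumor-like cells of batch 1. Endothelial-like cells of batch 1 stood at 9.63%, above myeloid-like and T-like cells, from 17 cells of which 5 had a UMI before thinning (29.4%). In batch 2 it was 4.47% in myeloid-like, 2.18% in T-like and 0.0540% in tumor-like cells, where 1282 of 1478 myeloid-like and 1046 of 1274 T-like cells were too shallow to be thinned. Unthinned, the shares were 15.4% of myeloid-like cells in batch 1 and 4.19% in batch 2, with a median of 2534 and 345 UMIs per cell. Tumor-like cells serve as the background, with 0.344% at a median of 10626 UMIs in batch 1 and 0.0817% at 713 UMIs in batch 2.

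Among myeloid-like cells Cxcr4 was spread over sub-clusters. In batch 1, at the finer clustering, cells led by Pf4, Ccl8, Apoe, C1qb and C1qc, genes of tissue macrophages, had 79.3 CPM (64.4 to 96.7). Cells led by Ly6c2, Plac8, Cxcl10, Ifit3 and Il1b, genes of inflammatory monocytes, had 77.1 CPM (54.9 to 105). The intervals of these macrophage and monocyte clusters overlap almost wholly. In batch 2 the largest myeloid-like cluster, led by Cadm1, had 174 CPM (127 to 234) and the one led by F13a1 and Mrc1 had 58.8 CPM (12.1 to 172).

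No difference in Cxcr4 between WT and KO myeloid-like cells passed the test. The levels were 73.3 CPM in WT and 74.3 in KO of batch 1, from 68 and 80 UMIs. In batch 2 they were 137, 222, 108 and 159 CPM in WT 1, 3, 4 and 5, and 252, 124, 55.3 and 222 CPM in KO 1, 2+3, 4 and 5+6. The genotypes overlapped fully. The log2 fold change was -0.050 ± 0.31 (SE, edgeR without the limit on low counts, adjusted p = 0.97), and 0.0697% of genes were called in that fit against 0.0861% with the limit. Its sign turned under several settings. In batch 1, which had the most molecules, the KO to WT ratio was 1.01 with a counting interval of 0.724 to 1.42.

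In T-like cells Cxcr4 was higher in KO in each batch. There were 2 UMIs in WT and 7 in KO of batch 1, or 22.2 and 55.2 CPM. In batch 2 there were 2, 0, 0 and 0 UMIs in WT 1, 3, 4 and 5, or 61.7 CPM and 3 libraries at 0. KO 1, 2+3, 4 and 5+6 had 3, 15, 4 and 8 UMIs, or 84.9, 77.7, 74.0 and 176 CPM. Every KO library lay above every WT library of its batch, which held for 83 of 7194 genes with at least 10 UMIs in T-like cells (1.15%). The WT libraries at 0 held few T-like UMIs, and a count of 0 allows up to 84.0 CPM in WT 3, 254 in WT 4 and 119 in WT 5, so each of those limits reaches into the KO range.

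The means were 16.8 ± 26.9 CPM in WT and 93.6 ± 47.4 in KO (SD, n = 5 each), a difference of 76.8 CPM with exact within-batch permutation p = 0.014. That is the smallest p these libraries allow, and it became 0.39 after adjustment over 27 tests. Cxcr4 was under the limit on low counts in this class. In edgeR without that limit the log2 fold change was 2.04 ± 0.67 (SE, unadjusted p = 0.0025, adjusted p = 0.74), in a fit where the median gene stood at 0.33. Of all genes, 0% were called in T-like cells with the limit and 0% without it. With the limit, 36 of 867 genes had an unadjusted p under 0.05, and DESeq2 called 0 genes as well. By molecules alone, the KO to WT ratio was 4.81 in batch 2 (1.22 to 41.6) and 2.49 in batch 1 (0.474 to 24.5). The direction held in all settings run, but the difference did not pass the adjusted test in any of them.

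**Figure D3:**
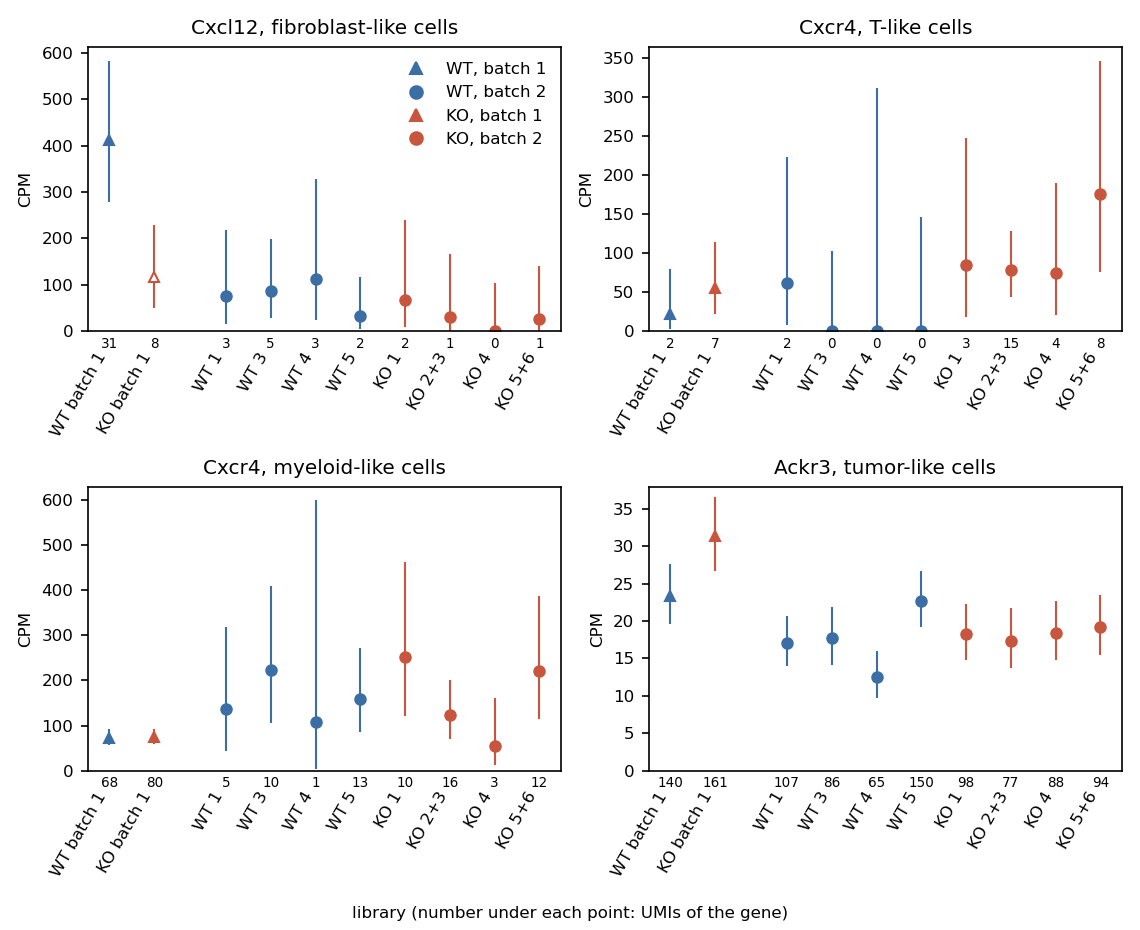
CPM of Cxcl12 in fibroblast-like, Cxcr4 in T-like and in myeloid-like, and Ackr3 in tumor-like cells, with 1 point per library, 95% exact Poisson intervals as bars and the UMI count under each point and an open symbol for a library with fewer than 10 cells. T-like Cxcr4 is at 0 in 3 WT libraries and between 55.2 and 176 CPM in KO, with wide intervals, while Ackr3 rests on 65 to 161 UMIs per library.

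T-like cells numbered 61 to 530 per KO library, with the highest number in the pooled KO 2+3, and 41 to 112 per WT library. The summed level of the 12 T markers was 3950 to 6104 CPM in WT and 5121 to 7157 in KO, and that of 13 myeloid markers was 247 to 1376 and 255 to 1033. Markers of B cells, which carry more Cxcr4, summed to 0 to 84.6 CPM in WT and 28.3 to 158 in KO, with 4 of 7 read and both Cd79a and Cd79b at 0 in all libraries. Free RNA was estimated at 89.5% of T-like UMIs in the WT library of batch 1 and 59.6% in WT 4, against 13.6 to 36.0% in the other 8 libraries. It would give 3.31 of the 41 T-like Cxcr4 UMIs, and with it subtracted the log2 fold change was 2.46 ± 0.80 (edgeR without the limit on low counts, adjusted p = 0.69). The part of the marker lists in the Cxcr4 difference was not tested. At the finer clustering, with libraries of a genotype summed and no test, the KO level was higher in 4 of 4 T-like clusters of batch 2. In the cluster whose leading genes include Ikzf2, Tox and Il2ra, genes of regulatory and exhausted T cells, there were 0 UMIs in 144 WT cells and 10 in 297 KO cells, or 92.1 CPM in KO. In the cluster led by Gm2682, Skap1 and Satb1 it was 43.0 CPM in WT and 144 in KO, and in the one that held Gzmb, a cytotoxic granule protease, 48.0 and 127 CPM.

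The difference between classes was also tested. On the log2(CPM + 20) scale the KO effect was 1.80 for T-like and -0.054 for myeloid-like cells, which differ by 1.86 with exact permutation p = 0.029 and 0.29 after adjustment over 30 tests. T-like cells gave 2.57 ± 3.78% of all Cxcr4 UMIs in WT (SD, n = 4 libraries with at least 10 UMIs) and 16.1 ± 7.35% in KO (n = 5). The exact permutation p of this difference was 0.029, and 0.57 after adjustment over 20 tests. The share depends on the number of T-like cells as well as on their Cxcr4 level. In batch 2 there were 325 T-like cells among 33752 in WT and 949 among 29384 in KO. The effect in T-like cells is thus not shown to be particular to that class.

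In tumor-like cells the Cxcr4 level lay near the level expected from free RNA, which is RNA released into the droplets. There were 49 UMIs in 55023 cells, and the level was 0.167 to 1.80 CPM per library. Free RNA, estimated from genes of immune and endothelial cells and from barcodes with at most 50 UMIs, would give 0.395 to 1.52 CPM and 53.8 UMIs in all. The measured level exceeded it in 4 of 10 libraries. Xist, which female host cells make, had 65 UMIs in tumor-like cells against 128 expected, so the same estimate was too high for that gene. Cxcr4 UMIs per Xist UMI were 1.0 and 0.738 in tumor-like cells of batches 1 and 2, 0.409 and 0.400 in myeloid-like cells, 0.176 and 0.225 in T-like cells and 0.833 in B-like cells of batch 1. The ratio in tumor-like cells thus lay above those of myeloid-like and T-like cells, and in batch 1 it rests on 4 UMIs of each gene. The free RNA itself held 8 Cxcr4 and 8 Xist UMIs in WT of batch 1, and 5 and 16 in KO. In batch 2 it ranged from 3 Cxcr4 beside 19 Xist UMIs in WT 5 to 36 beside 51 in KO 4. The difference between these ratios was not tested. The log2 fold change of Cxcr4 in KO was 0.46 ± 0.49 (SE, edgeR without the limit on low counts, adjusted p = 0.84), with 0.166% of genes called in that fit and 0% with the limit. The exact permutation test gave p = 0.27 for means of 0.793 ± 0.567 CPM in WT and 1.12 ± 0.491 in KO (SD, n = 5 each). These values do not settle whether tumor-like cells carried Cxcr4 beyond free RNA.

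**Figure D4:**
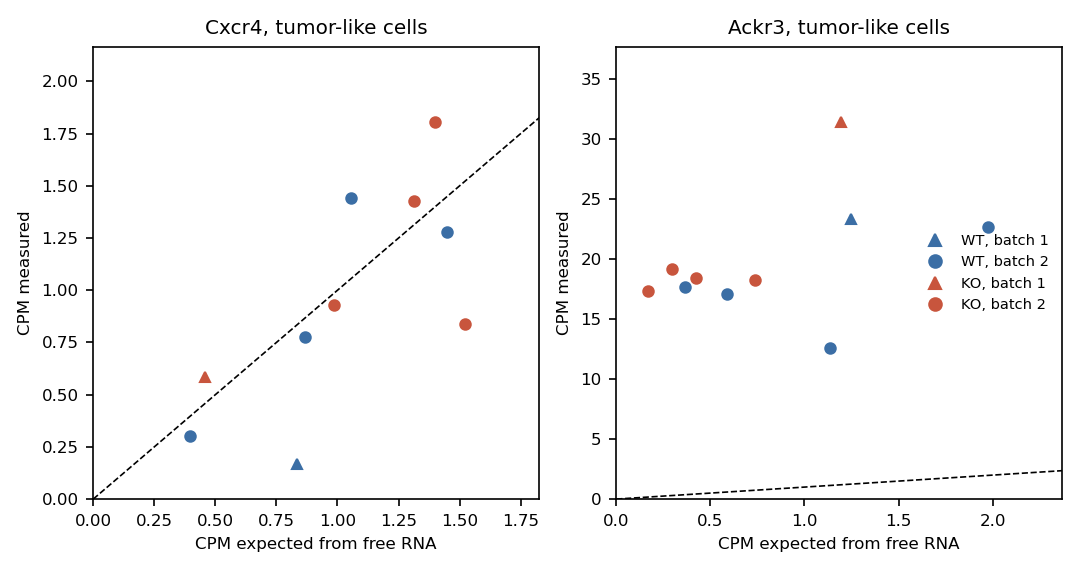
Measured CPM in tumor-like cells against the CPM expected from free RNA, 1 point per library, with a dashed line where both are equal. Cxcr4 scatters about the line at 0.167 to 1.80 CPM, whereas Ackr3 lies at 12.6 to 31.4 CPM, far above an expectation of at most 1.97 CPM.

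Ackr3 was read mainly in fibroblast-like and tumor-like cells. It averaged 47.8 ± 39.1 CPM in fibroblast-like cells (SD, n = 9) and 19.8 ± 5.07 CPM in tumor-like cells (n = 10), and it was above 0 in every library of both. Fibroblast-like cells were higher in 8 of 9 libraries, which did not pass the adjustment (exact permutation adjusted p = 0.076). Tumor RNA in fibroblast-like cells, for which Pvt1 is given above, may enter this level, and its part in it was not tested. Endothelial-like cells had 9.33 ± 24.7 CPM (n = 7) and epithelial-like cells 9.94 ± 19.8 (n = 6), resting on 1 and 3 UMIs. T-like, B-like, dendritic-like and pericyte-like cells had none, which in T-like cells allows up to 13.8 CPM in batch 1 and 6.93 CPM in batch 2. Tumor-like cells were above T-like and myeloid-like cells in 10 of 10 libraries, and fibroblast-like cells above both in 9 of 9 (exact permutation adjusted p = 0.047 for each).

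Of the 1159 Ackr3 UMIs, 1066 (92.0%) came from tumor-like cells, which were 84.3% of the cells. Free RNA would account for 46.1 of them. Within tumor-like cells the level varied by cluster. Over the 8 libraries of batch 2 it was lowest, at 11.1 ± 3.72 CPM, in cells led by Insig1, Gm47283 and Tubb5, with Insig1 an inhibitor of sterol synthesis. It was highest, at 26.7 ± 13.7 CPM, in cells led by Rps28, Rps15a and Mt1, where single libraries ran from 6.69 to 51.2 CPM. Cells whose leading genes include the interferon-induced Usp18, Rsad2 and Ifit1 had 19.0 ± 9.25 CPM. The clusters were made from the same cells, so these levels are a description.

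**Figure D5:**
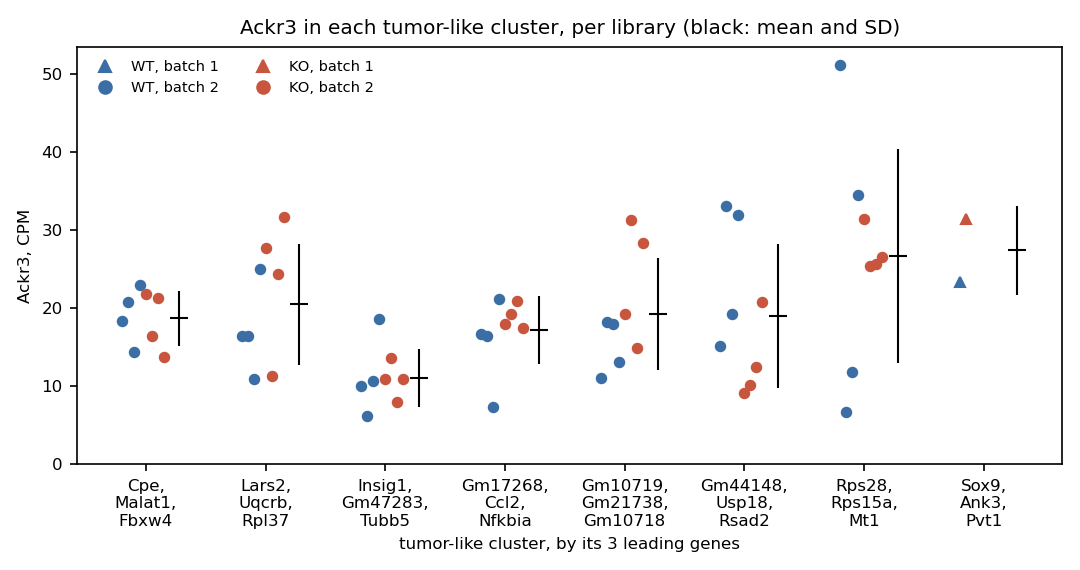
Ackr3 CPM per library in each tumor-like cluster, named by its 3 leading genes, with the mean and SD over libraries in black and each library drawn where it held 100 or more cells of that cluster. The cluster led by Insig1 is lowest at 11.1 CPM and the spread is widest in the cluster led by Rps28, from 6.69 to 51.2 CPM.

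No difference in Ackr3 between genotypes passed the test. In tumor-like cells it was 23.4 CPM in WT and 31.4 in KO of batch 1. In batch 2 it was 17.1, 17.7, 12.6 and 22.7 CPM in WT 1, 3, 4 and 5 and 18.2, 17.4, 18.4 and 19.2 CPM in KO 1, 2+3, 4 and 5+6. KO libraries of batch 2 lay within the WT range. The log2 fold change was 0.096 ± 0.15 (SE, edgeR, 5 libraries each, adjusted p = 0.95). By molecules the KO to WT ratio was 1.03 in batch 2 (0.889 to 1.19) and 1.34 in batch 1 (1.06 to 1.70), where a single library per genotype gives no replicate check. In fibroblast-like cells the WT libraries had 146 CPM in batch 1 and 50.01, 34.2, 37.5 and 16.0 in batch 2. KO had 43.4 CPM in its 9 cells of batch 1 and 33.2, 59.8, 27.9 and 25.2 in batch 2, and the genotypes overlapped. These values rest on 1 to 11 UMIs each. The log2 fold change there was 0.073 ± 0.91 (edgeR without the limit on low counts, adjusted p = 1), and its sign turned under several settings.

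Summed over all cells, Cxcr4 was 12.1 CPM in WT and 15.3 in KO of batch 1. In batch 2 it was 3.58, 5.71, 1.25 and 2.43 CPM in WT and 4.65, 11.1, 4.42 and 6.83 in KO. The log2 fold change was 0.81 ± 0.33 (SE, edgeR, 5 libraries each, unadjusted p = 0.026, adjusted p = 0.52), with 0% of genes called with the limit on low counts and 0.884% without it. Without the limit it was 0.77 ± 0.23 (adjusted p = 0.081), and leaving out 1 further library or TMM in that fit brought the adjusted p as low as 0.016 and as high as 0.71. The exact permutation test gave p = 0.057. The fold rests in part on the pooled KO libraries, with 0.55 without KO 2+3 and 0.38 without KO 2+3 and KO 5+6, both in the fit with the limit. T-like cells numbered 98, 112, 41 and 74 in the WT libraries of batch 2 and 105, 530, 169 and 145 in KO 1, 2+3, 4 and 5+6. Myeloid-like cells numbered 129, 145, 32 and 255 in WT and 135, 417, 186 and 179 in KO. KO 2+3 held the most of both and the ranges of the genotypes overlapped. The number of leukocytes and their Cxcr4 level cannot be told apart in this sum. Cxcl12 over all cells was 1.78 ± 1.72 CPM in WT and 1.09 ± 0.562 in KO (SD, n = 5 each, exact permutation p = 0.54). The WT library of batch 1 stood at 4.85 CPM and the other 9 between 0.368 and 1.83. Ackr3 over all cells was 18.2 ± 3.73 and 19.0 ± 3.68 CPM (exact permutation p = 0.70).

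The ligand and its receptors were seldom read in the same cell. Of 25 fibroblast-like cells with Cxcl12 and 17 with Ackr3, 4 had both. Among 38 T-like and 176 myeloid-like cells with Cxcr4, 0 and 1 had Ackr3. Of 994 tumor-like cells with Ackr3, 1 had Cxcr4. At this depth most molecules of a cell are missed, so the overlap itself was not measurable.

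The genes whose profile over classes was most like each member were ranked by Pearson r of log2(CPM + 20) across 6 classes of batch 1 and 8 of batch 2, taking the lower r, among 7504 genes (7505 for Cxcl12). For Cxcl12 these were Plpp3 (r = 0.971 and 0.979), Ghr (0.985 and 0.908), Timp3 (0.984 and 0.902), Tshz2 (0.888 and 0.971) and Ttc28 (0.880 and 0.912). Plpp3, a lipid phosphatase, Ghr, the growth hormone receptor, and Timp3, an inhibitor of metalloproteinases, were highest in fibroblast-like cells. Tshz2 and Ttc28 were highest in endothelial-like cells of both batches. For Ackr3 they were Dnm1, Slc39a14, Ugdh, Fbln2 and Nav3, with r between 0.901 and 0.991, each highest in fibroblast-like cells of both batches. For Cxcr4 they were mt-Co2, mt-Nd5, Gm10800, Il10rb and Sp110, with r between 0.839 and 0.890. Of these, Il10rb, a receptor chain for interleukin 10, was highest in myeloid-like cells of both batches. In batch 1 mt-Co2, mt-Nd5 and Sp110 were highest in B-like and Gm10800 in endothelial-like cells. In batch 2 mt-Nd5 was highest in T-like cells and the others in myeloid-like cells. The classes share libraries and free RNA, and Gm10800 belongs to a repeated family, so these likenesses are descriptions.

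Other genes of the axis were taken from a list of 47 ligands, receptors, G proteins, arrestins, migration genes and regulators, of which 46 were in the table. None passed the adjusted edgeR test in any class in either direction. In T-like cells 12 were tested, with 0 at an unadjusted p under 0.05 (against 4.15% of all genes), and their median log2 fold change was 0.018 against -0.026 over all 867 genes. The most abundant were Dock2, a Rac activator of leukocyte migration, at a log2 fold change of -0.13 ± 0.18, Gnb1, Hmgb1, Hif1a and Jak2. In myeloid-like cells 14 were tested and 1 had an unadjusted p under 0.05 (7.14%, against 4.30% of all genes). It was Cd74, the receptor of MIF and the invariant chain of MHC class II, at 0.71 ± 0.26 (unadjusted p = 0.012, adjusted p = 0.77). In fibroblast-like cells 9 were tested with 0 at that level, against 4.09% of all genes, and Ebf1, a transcription factor of stromal progenitors, stood at 0.51 ± 0.26 (adjusted p = 0.99).

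In tumor-like cells 33 of the list were tested and 2 had an unadjusted p under 0.05, or 6.06% against 5.42% of all genes. These were Dpp4, the protease that inactivates CXCL12, at 0.71 ± 0.26 and Ptk2b, a focal adhesion kinase, at -0.29 ± 0.11 (adjusted p = 0.89 for both). Mif, another ligand of Cxcr4, stood at 0.22 ± 0.16 (adjusted p = 0.89). Over all cells 10 of 41 had an unadjusted p under 0.05 (24.4%, against 8.85% of all genes). Of these, 9 had positive values in KO, namely Cd74, Coro1a, Dock2, Dpp4, Elmo1, Foxo1, Pik3cg, Rgs1 and Rgs2, at log2 fold changes from 0.67 to 1.12, and their adjusted p ran from 0.45 to 0.56. Grk5, a kinase that desensitizes receptors, stood at -0.27 ± 0.11 (adjusted p = 0.51). Several of these genes are leukocyte genes, and the KO 2+3 library held the most T-like and myeloid-like cells, so number and level cannot be told apart here either.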

How the data were processed

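Single-cell RNA of 5 WT and 5 KO tumor libraries was sequenced from 3' ends. The authors deposited raw UMI counts per gene and barcode, empty droplets included, made with Cell Ranger 7.1.0 on mm10 per the submitters' processing notes. Cells were filtered by the study's limits, Actb was left out of totals, and clusters (scanpy 1.11.5, leidenalg 0.10.2, 2000 variable genes, 30 components, 15 neighbours, resolution 1, then a second round on 9964 non-tumor candidates) were named when at least 3 markers were 2-fold higher and read in 2% of cells, with limits set after the clusters were seen. Doublets were not removed, and mixed clusters stayed unnamed.

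Counts were summed per library and class, since cells are not replicates. Tests were edgeR 4.0.16 (quasi-likelihood, TMM, filterByExpr, batch as covariate, Benjamini-Hochberg) in R 4.3.3 and exact two-sided permutations within batch. Genes named are the 3 members, the axis list (by counts, unadjusted p under 0.05, or the 5 most abundant) and the 5 most alike. The members and lists were chosen with earlier results of these data known. Scripts were tested on simulated data. DESeq2 1.42.0 was an alternative. P-values measure the spread between libraries, in 2 of which tumors were pooled.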

Additional observations from a re-analysis of the deposited data

Results flagged for a closer look

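Of 41 groups of libraries examined, 17 held a library whose gap to its neighbour was large for the group's range, where chance gives about 1 in 20. Many of the groups are at 0 in all but 1 library, and batches differ in depth.

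The WT library of batch 1 stood above the other WT libraries for Cxcl12 in fibroblast-like cells (411 CPM against 32.1 to 112), in stroma (361 CPM) and over all cells (4.85 CPM), and for Ackr3 in fibroblast-like cells (146 CPM against 16.0 to 50.01) and in stroma (128 CPM). The KO library of batch 1 stood above the other KO libraries for Ackr3 in tumor-like cells (31.4 CPM against 17.4 to 19.2) and over all cells (25.3 CPM). KO 5+6 stood above the other KO libraries for Cxcr4 in T-like cells (176 CPM against 55.2 to 84.9).

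The rest come from 1 to 6 UMIs. They are Cxcl12 in pericyte-like cells of WT 5 (38.7 CPM), endothelial-like cells of KO 1 (173 CPM), T-like cells of KO 2+3 (10.4 CPM) and tumor-like cells of WT 1 (0.959 CPM). They are also Cxcr4 in fibroblast-like cells of WT 1 (25.004 CPM), pericyte-like cells of WT 3 (75.2 CPM) and endothelial-like cells of KO 4 (159 CPM), and Ackr3 in endothelial-like cells of KO 5+6 (65.3 CPM) and epithelial-like cells of KO 1 (10.1 CPM).

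Outside the named classes, unnamed cells held 64 Cxcr4 and 59 Ackr3 UMIs. Barcodes with at most 50 UMIs, taken as free RNA, held 57 UMIs of Cxcl12, 202 of Cxcr4 and 113 of Ackr3. There Cxcl12 was 4.65, 4.55, 1.46 and 2.74 CPM in WT 1, 3, 4 and 5. It was 8.60, 4.71, 7.44 and 5.27 CPM in KO 1, 2+3, 4 and 5+6. In batch 1 it was 0 in WT and 0.89 CPM in KO. These KO values were the higher ones, opposite to fibroblast-like cells, rest on at most 12 UMIs each, and were not tested.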

How the results depend on the processing

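Over 13 results with a direction and their alternatives, 291 values were compared: 258 kept direction and side of the threshold, 29 turned, and 4 passed the threshold where the reported fit did not. The KO difference of Cxcl12 in fibroblast-like cells and of Cxcr4 in T-like cells, stroma, tumor-like cells and all cells turned in no setting run. The 4 are Cxcr4 over all cells without the limit on low counts, combined with leaving out TMM (0.87, adjusted p = 0.030), KO 1 (0.86, 0.040), KO 4 (0.86, 0.036) or WT 3 (0.98, 0.016). Such combinations were chosen after seeing the data, and with 1 library left out they ranged from 0.50 (without KO 2+3) to 0.98. With 1 library left out, log2 fold changes ranged from -1.78 to -0.89 for Cxcl12 in fibroblast-like cells, 1.82 to 2.72 for Cxcr4 in T-like cells, 0.18 to 0.69 for Cxcr4 in tumor-like cells, 0.019 to 0.23 for Ackr3 in tumor-like cells, -1.05 to -0.039 for Cxcl12 over all cells (-0.039 without the WT library of batch 1), 0.55 to 1.02 for Cxcr4 over all cells, -0.10 to 0.12 for Cxcr4 in myeloid-like cells (0.0076 without KO 2+3), -0.23 to 0.19 for Ackr3 in fibroblast-like cells (-0.23 without KO 2+3, -0.20 without WT 5) and -0.080 to 0.093 for Ackr3 over all cells (0.030 without KO 2+3). Moves by over 1.5 times were also seen for Cxcl12 in fibroblast-like cells (-4.16 at resolution 2, -2.59 without the batch term, -2.26 with 500 genes), Cxcr4 in tumor-like cells (0.95 with free RNA subtracted, 0.12 without the pooled KO libraries, 0.16 at resolution 2, 0.19 with 500 genes), Cxcr4 over all cells (0.38 without the pooled KO libraries, 0.41 with 500 genes) and Cxcl12 over all cells (-1.43 with 500 genes, -0.044 in batch 2 alone).

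Values near 0 turned sign. Cxcr4 in myeloid-like cells went from -0.050 to 0.059 with DESeq2, 0.070 without the batch term, 0.031 with the replicate block, 0.014 in batch 2 alone and 0.0057 at resolution 2. Ackr3 in fibroblast-like cells went from 0.073 to -0.055 with DESeq2, -0.98 without the batch term, -0.16 without the pooled KO libraries, -0.19 with at least 500 genes and -0.75 with the library of under 10 cells kept, an alternative chosen after seeing the data. Ackr3 over all cells went from -0.0092 to 0.053 without TMM, 0.0087 without the batch term, 0.0050 with the replicate block and 0.027 without the pooled KO libraries. Without the limit on low counts it was 0.052 without TMM and 0.056 without WT 5. Ackr3 in tumor-like cells without that limit turned to -0.012 in batch 2 alone and ranged from -0.019 to 0.20 with 1 library left out (-0.0011 without WT 4). The cause was not tested.

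Called genes in fibroblast-like cells were 0, and 2 with DESeq2, without TMM, without the limit on low counts or at resolution 2 (0 to 2 with 1 library left out). In myeloid-like cells 1 gene was called, 13 without the limit, 3 in batch 2 alone and 0 without TMM, the batch term or the pooled libraries, with the replicate block or with free RNA subtracted (0 to 3 with 1 library left out). In tumor-like cells 0 became 1 with DESeq2 and 44 without the limit. Over all cells 0 became 2 with DESeq2 and 242 without the limit (0 to 1 with 1 library left out). In T-like cells it stayed 0. The 7 called class pairs became 0 in batch 2 alone and with any library left out. A pair that loses a library has a larger smallest p in the exact sign-flip test. These counts therefore do not show whether the class differences themselves changed, which was not tested. Exact differences with 1 library left out ranged from -60.6 to -33.8 CPM for Cxcl12 in fibroblast-like cells, 56.6 to 87.8 CPM for Cxcr4 in T-like cells, 17.9 to 26.1 CPM for Cxcr4 in stroma, and 11.3 to 15.7 percentage points for the T-like share of Cxcr4. The count of passing level and share tests stayed 0. Whether replicate numbers shared by WT and KO pair the tumors is not stated. Deviations of libraries with the same number correlated at -0.386 to 0.318 across genes, which does not decide it. With that replicate block Cxcr4 in T-like cells stood at 2.12 and over all cells at 0.81, and no member's call changed. Free RNA was not subtracted over all cells. Depth limits the T-like result, which rests on 41 UMIs.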
